A study of Mus musculus with 40 samples.

Results

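The uteri described here came from prepubertal mice of postnatal day 25 that had received doxorubicin together with anti-Müllerian hormone (AMH), and they were compared with uteri from vehicle-treated mice of the same time point. Members were the 10 bulk RNA-seq libraries of these groups at 4 h, out of 40 in the series, and all genes with at least 1 FPKM (fragments scaled by gene length and library size) in 5 or more of the 10 libraries. That left 14203 of the 54532 genes in the table. The combined treatment was 2 weekly doses of doxorubicin at 3 mg/kg with AMH at 0.75 mg/kg given alongside, and vehicle was phosphate-buffered or plain saline. Groups given doxorubicin alone or AMH alone at those doses, each with 5 libraries at 4 h, served as further references, as did 5 vehicle and 5 combined-treatment libraries harvested at 24 h. No genetic alteration was given in the labels of any group. The labels number biological replicates 1 to 5 but do not state the strain, or that each library is a separate mouse, so p-values measure the spread between these libraries.

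Doxorubicin is an anthracycline that intercalates into DNA and traps topoisomerase II on it, leaving double-strand breaks. Breaks activate the kinase ATM and through it the transcription factor p53, whose targets halt the cell cycle, repair DNA or start apoptosis. AMH is a hormone of the TGF-beta family: it binds its own type II receptor, AMHR2, which pairs with type I receptors shared with the bone morphogenetic proteins, and the signal passes through SMAD1, SMAD5 and SMAD9 to genes such as the Id family. In the embryo AMH makes the Müllerian duct, the forerunner of oviduct and uterus, regress in males, and in the ovary it holds back the recruitment of primordial follicles.

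At 4 h, 65 genes (0.458% of those tested) differed between combined treatment and vehicle at an adjusted p under 0.05 in limma with Benjamini-Hochberg adjustment, 36 higher (0.253%) and 29 lower (0.204%). The higher genes included the p53 targets Cdkn1a and Ccng1, the AMH-pathway genes Id2 and Smad9, the predicted gene Gm14226 and 4 interferon-response genes. The lower genes with the largest differences were Retnla, Ptpn5, Padi2 and Hsd11b2, and Cma1 and Mgl2 had the smallest p. Values of the 5 libraries did not overlap between the groups for 63 of the 65, and for 8.12% of all genes tested. Of the called genes, 4 higher and 1 lower met the filter through 1 group alone, which fixed their lack of overlap. The median log2 difference of all genes was 0.0046. Log2 differences throughout are of FPKM + 1, so for genes at low FPKM the true ratio is larger than they show.

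**Figure D1:**
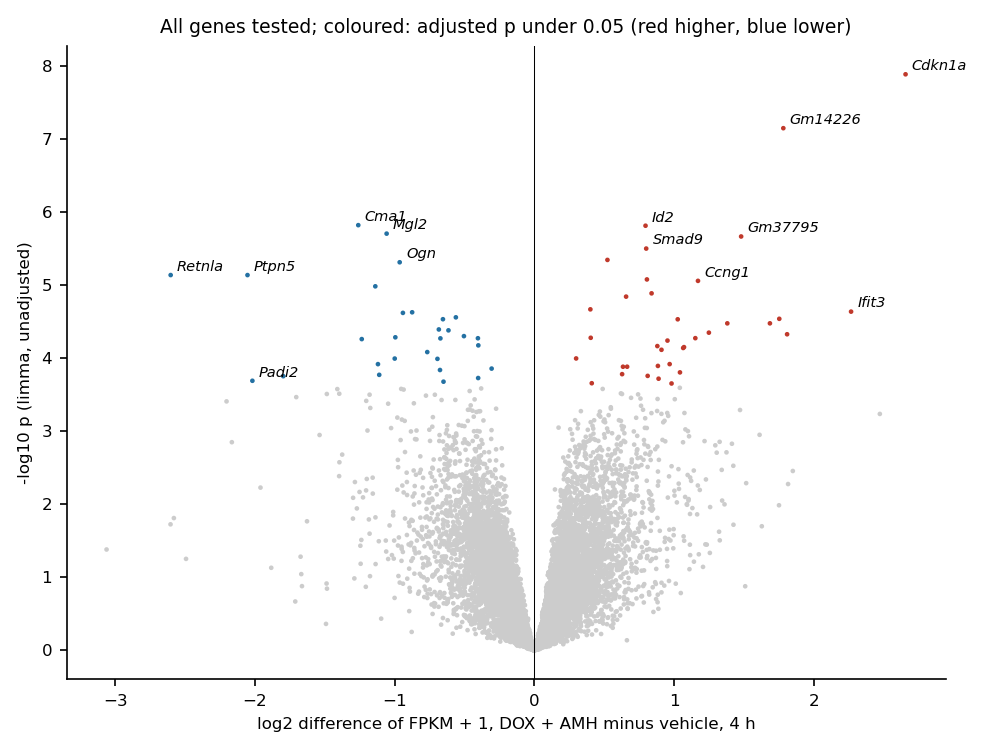
Each point is 1 of the 14203 genes tested, with the log2 difference of FPKM + 1 between combined treatment and vehicle at 4 h on the x axis and the unadjusted limma p on a -log10 y axis. The 36 red genes were higher and the 29 blue genes lower at an adjusted p under 0.05, with Cdkn1a at the top right and Retnla farthest to the left.

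Rebuilt from FPKM and gene length, the libraries held 18101414 to 27364773 reads in genes with vehicle and 18149870 to 20038162 with combined treatment. The marker genes of uterine stroma and smooth muscle were present in all 10 libraries, as fits the labelled tissue. Other tissue was present unevenly. The summed FPKM of 16 oviduct and ciliated-cell markers was 1196 in combined-treatment library 5 and 72.2 to 238.8 in the other 9, and that of 10 adipocyte markers was 3.65, 9.02, 344, 7.75 and 175 with combined treatment and 60.8 to 297.3 with vehicle. In vehicle library 3, 12 markers of squamous epithelium summed to 1150, against 6.90 to 118 in the other 9. Fewer cells of a type and less RNA per cell cannot be told apart in bulk libraries. Calls depended on single libraries: 13 of the 65 were kept whichever of the 10 libraries was left out (Cdkn1a, Ccng1, Gm37795, Rnf169, Id2, Smad9, Gm14226, Cux2, Retnla, Mgl2, Cma1, Ptpn5 and Ogn), and the count fell to 19, 17 or 18 without vehicle library 1, 2 or 4, to 43 without combined-treatment library 2 and to 18 without combined-treatment library 5. It fell to 13 without the libraries high in oviduct markers, which are vehicle library 4 and combined-treatment library 5 here and 6 libraries of other groups, and to 24 (17 higher and 7 lower) without combined-treatment libraries 1, 2 and 4, those low in adipocyte markers. The count rose to 1911 (13.5%, 845 or 5.95% higher and 1066 or 7.51% lower), with all 65 among them, when only the 4 groups at 4 h entered the fit, and to 955 (6.72%, with 2.69% higher and 4.03% lower) with vehicle and combined treatment alone in it.

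The p53 targets held the largest higher difference of the 65 genes, that of Cdkn1a. Of 48 tested, 6 were higher and 0 lower (background 0.253% higher), and their median log2 difference was 0.40. Cdkn1a, which encodes the cyclin-dependent kinase inhibitor p21 (chr17:29090976-29100727, plus strand, GRCm38), stood at 3.62, 4.598, 5.07, 4.41 and 1.88 FPKM in vehicle libraries 1 to 5 and at 35.6, 37.8, 16.3, 32.02 and 29.3 FPKM in combined-treatment libraries 1 to 5. The lowest treated library, the third, lay above every vehicle library. The log2 difference was 2.66 ± 0.36 (SE, n = 5 per group, limma adjusted p = 0.000184).

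Sequence upstream of Cdkn1a is shown because it holds the p53 site searched for: 2 copies of the decamer without a spacer, both cores intact and at most 3 of the 20 positions off consensus. In the RefSeq promoter table (GRCm38.p6), the 250 bases before one of its listed starts (chr17:29090729-29090978, plus strand) held such a match, in capitals, beginning 51 bases before the start.
Cdkn1a promoter: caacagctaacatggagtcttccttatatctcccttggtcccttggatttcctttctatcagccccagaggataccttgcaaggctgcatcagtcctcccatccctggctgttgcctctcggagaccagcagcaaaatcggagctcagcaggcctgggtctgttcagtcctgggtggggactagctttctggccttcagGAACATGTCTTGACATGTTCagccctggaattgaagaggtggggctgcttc
Such a match was in 156 of the 32851 windows of the same length in the table (0.475%). Of the 6 higher p53 targets, 5 had a window in the table and 1 of them, Cdkn1a, held the match, at only one of its listed starts. A match is a description of letters, and the windows did not cover introns, where many p53 sites lie.

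Ccng1, which encodes cyclin G1 and recruits a phosphatase to the p53 inhibitor MDM2, measured 29.9, 23.4, 19.7, 25.6 and 20.4 FPKM with vehicle and 67.04, 54.96, 40.1, 54.3 and 57.9 FPKM with combined treatment (log2 difference 1.17 ± 0.23, limma adjusted p = 0.00954). All 5 treated libraries lay above all 5 vehicle libraries. The other higher members were Ephx1 (microsomal epoxide hydrolase), Trp53inp1 (a pro-autophagy and pro-apoptotic p53 partner), Slc19a2 (a thiamine transporter) and Sesn2 (sestrin 2, an inhibitor of mTORC1 under stress), with log2 differences of 0.95, 0.97, 0.66 and 0.98 (limma adjusted p = 0.0215, 0.035, 0.0357 and 0.0485). Their groups did not overlap either. Leaving out 1 library ended these calls: Ephx1 without vehicle library 1, 2 or 4 or combined-treatment library 5 (adjusted p = 0.064 to 0.127), Trp53inp1 without vehicle library 1, 2, 3, 4 or 5 or combined-treatment library 1, 2, 4 or 5 (adjusted p = 0.0513 to 0.126), Slc19a2 without vehicle library 1, 2, 3 or 4 or combined-treatment library 1, 2, 4 or 5 (adjusted p = 0.0526 to 0.138) and Sesn2 without vehicle library 1, 2, 3, 4 or 5 or combined-treatment library 1, 2, 4 or 5 (adjusted p = 0.0632 to 0.157). Cdkn1a and Ccng1 kept theirs, and without combined-treatment libraries 1, 2 and 4 together Ccng1 lost it too (adjusted p = 0.114).

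Several well-known p53 targets had positive differences that did not pass the test. For Mdm2, the E3 ligase that degrades p53, the difference was 0.53 ± 0.15 (limma adjusted p = 0.0851), for Bbc3, the pro-apoptotic protein PUMA, 0.92 ± 0.25 (adjusted p = 0.0782), and for the secreted stress factor Gdf15 1.08 ± 0.30 (adjusted p = 0.0851). Gdf15 read 0.397, 0.468, 0.206, 0.428 and 0.473 FPKM with vehicle and 2.06, 1.52, 1.52, 2.56 and 2.197 FPKM with combined treatment. Its level was low, and it met the filter through treated libraries alone, so its lack of overlap was fixed by the filter. Pmaip1, which encodes the apoptosis protein NOXA, differed by 0.49 ± 0.22 (adjusted p = 0.232), and Trp53 itself by -0.27 ± 0.12 (adjusted p = 0.208). With only the 4 groups at 4 h in the fit, 21 of the 48 were higher and 0 lower against 5.95% of all genes higher, and Mdm2, Bbc3 and Gdf15 were among them (adjusted p = 0.0289, 0.014 and 0.00391). Of 28 genes of the BCL2 family and death receptors, 0 passed, with a median of 0.015. In that other fit 3 were higher and 2 lower, against 5.95% and 7.51% of all genes. Without the libraries high in oviduct markers, 2 of the 48 p53 targets were higher, beside 7 of all 14203 genes.

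A transcript of undecided class beside a p53-controlled microRNA was also higher. Gm37795 (chr4:150068539-150070997, plus strand) begins inside the hairpin of Mir34a, sharing its last 17 bases (hairpin chr4:150068454-150068555), and runs on downstream. It read 0.683, 1.23, 1.904, 1.83 and 1.15 FPKM with vehicle and 5.09, 6.18, 3.86, 7.196 and 5.42 FPKM with combined treatment, with no overlap between the groups (log2 difference 1.48 ± 0.26, limma adjusted p = 0.0051, and 0.0886 without combined-treatment libraries 1, 2 and 4). miR-34a, a p53 target, represses cell-cycle messages through its seed, bases 2 to 8, given here in capitals from RefSeq (chr4:150068473-150068494, plus strand, GRCm38.p6).
mmu-miR-34a-5p: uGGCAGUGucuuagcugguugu
The mature sequence lies before the start of Gm37795, so these reads did not measure it, and the row of the hairpin itself was at 0 in 10 of 10 libraries.

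Genes of the AMH and SMAD pathway were higher in smaller number. Smad9, among the SMADs that carry the signal of AMH and bone morphogenetic proteins, and Id2, an inhibitor of basic helix-loop-helix transcription factors and a SMAD target, passed the test. Smad9 (chr3:54755582-54801257, plus strand) read 0.284, 0.806, 0.426, 0.365 and 0.671 FPKM with vehicle and 1.17, 1.74, 1.78, 1.96 and 1.48 FPKM with combined treatment (log2 difference 0.80 ± 0.14, limma adjusted p = 0.0064). Id2 (chr12:25093799-25097140, minus strand) read 42.9, 44.8, 44.9, 38.1 and 43.4 FPKM with vehicle and 59.1, 72, 82.1, 87.5 and 77.2 FPKM with combined treatment (log2 difference 0.80 ± 0.14, adjusted p = 0.0051). For Id2 every treated library lay above every vehicle library. Smad9 met the filter through combined-treatment libraries alone, so its lack of overlap was fixed by the filter. Id2 kept its call in every alternative run, and Smad9 lost it without the libraries of the series that are high in oviduct markers (adjusted p = 0.0855) or without combined-treatment libraries 1, 2 and 4 (adjusted p = 0.071).

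Windows of Id2 and Smad9 are printed because both held motifs bound by SMAD1 and SMAD5 in other systems, GGCGCC and GGAGCC, searched on both strands and set in capitals where printed. For Smad9 the printed stretch is chr3:54755332-54755581, plus strand. For Id2 it is chr12:25096254-25096342, minus strand, the part of its window outside annotated untranslated exons, which holds GGCGCC and not GGAGCC. The RefSeq start of Id2 lies inside the gene span given above, which begins farther upstream, so this window is within that span.
Smad9 promoter: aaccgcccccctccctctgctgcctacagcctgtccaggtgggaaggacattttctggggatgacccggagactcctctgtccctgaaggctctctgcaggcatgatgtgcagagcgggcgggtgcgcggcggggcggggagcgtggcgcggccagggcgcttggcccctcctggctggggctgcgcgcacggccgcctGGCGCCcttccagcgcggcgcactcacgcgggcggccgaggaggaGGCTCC
Id2 promoter: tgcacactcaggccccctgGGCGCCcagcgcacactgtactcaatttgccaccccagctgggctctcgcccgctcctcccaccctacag
GGCGCC was in 9.59% and GGAGCC in 26.0% of the 32851 windows of 250 bases, so both are common letters. In Smad9 GGCGCC began 51 bases and GGAGCC, on the other strand, 6 bases before the start, and in Id2 they began 231 and 88 bases before it. GTCTAGAC, the palindromic SMAD motif, was in 0.167% of all windows and in 0 of these 2.

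Of 19 SMAD1/5/9 targets tested, 1 was higher (background 0.253%) and 0 lower, with a median log2 difference of 0.23. Id3 measured 37.1, 47.4, 43.8, 39.03 and 38.6 FPKM with vehicle and 58.7, 66.2, 73.1, 84.1 and 56.04 FPKM with combined treatment without overlap, and its difference of 0.69 ± 0.17 had a limma adjusted p of 0.0603. Atoh8, a helix-loop-helix factor induced by the same SMADs, also did not overlap (0.84 ± 0.22, adjusted p = 0.0717). Id1 overlapped between the groups (0.23 ± 0.18, adjusted p = 0.454), as did Id4 (0.23 ± 0.12, adjusted p = 0.295). In the fit of the 4 groups at 4 h, 5 of the 19 were higher against 5.95% of all genes, Id2, Id3 and Atoh8 among them (adjusted p = 0.00075, 0.0106 and 0.00391). The pathway's inhibitors did not pass, with 0.17 ± 0.099 for Smad6 and 0.039 ± 0.12 for Smad7 (adjusted p = 0.334 and 0.875).

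Among receptors, Amhr2 was measured in all 10 libraries, at 3.72, 3.25, 3.15, 2.43 and 4.42 FPKM with vehicle and 5.16, 5.73, 7.31, 4.44 and 5.23 FPKM with combined treatment. All treated libraries lay above the vehicle libraries, although the lowest treated and highest vehicle values were close, and the difference did not pass (log2 0.58 ± 0.28, limma adjusted p = 0.243). The type I receptors Bmpr1a and Acvr1 differed by 0.017 ± 0.087 and -0.097 ± 0.095 (adjusted p = 0.93 and 0.575). Of 20 receptors and SMADs tested, Smad9 alone passed (background 0.253% higher), and of 25 ligands and antagonists of the family 0 did (median -0.078).

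Gm14226 had the smallest p-value after Cdkn1a. This predicted protein-coding gene (chr2:155018266-155027104, plus strand) overlaps the agouti gene, a, on the same strand, and reads of the shared span could be assigned to either. It read 1.05, 1.86, 2.52, 3.77 and 2.21 FPKM with vehicle and 5.17, 9.51, 12.96, 13.8 and 10.3 FPKM with combined treatment, with no overlap (log2 difference 1.78 ± 0.26, limma adjusted p = 0.000503). Other higher genes without a place in the lists included Cux2, a homeobox factor (0.81 ± 0.15, adjusted p = 0.00954), Cxcr4, the receptor of the chemokine CXCL12 (1.25 ± 0.27, adjusted p = 0.021), Chst9, a sulfotransferase (1.38 ± 0.29, adjusted p = 0.0182), and Sox1ot, a transcript that overlaps Sox1 on the same strand (1.75 ± 0.36, adjusted p = 0.0174). Cux2 measured 0.6403, 0.717, 0.999, 0.745 and 1.11 FPKM with vehicle and 1.47, 2.27, 2.44, 2.47 and 2.51 FPKM with combined treatment, low levels without overlap, and was not called with a pseudocount of 0.1 (adjusted p = 0.0575) or without the libraries high in oviduct markers (adjusted p = 0.15). With 1 library left out, calls were lost for Cxcr4 without vehicle library 1, 2 or 4 or combined-treatment library 3 or 5 (adjusted p = 0.0516 to 0.102), Chst9 without vehicle library 1, 2 or 4 or combined-treatment library 5 (adjusted p = 0.0582 to 0.0948) and Sox1ot without vehicle library 1, 2 or 4 or combined-treatment library 5 (adjusted p = 0.0582 to 0.0964).

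**Figure D2:**
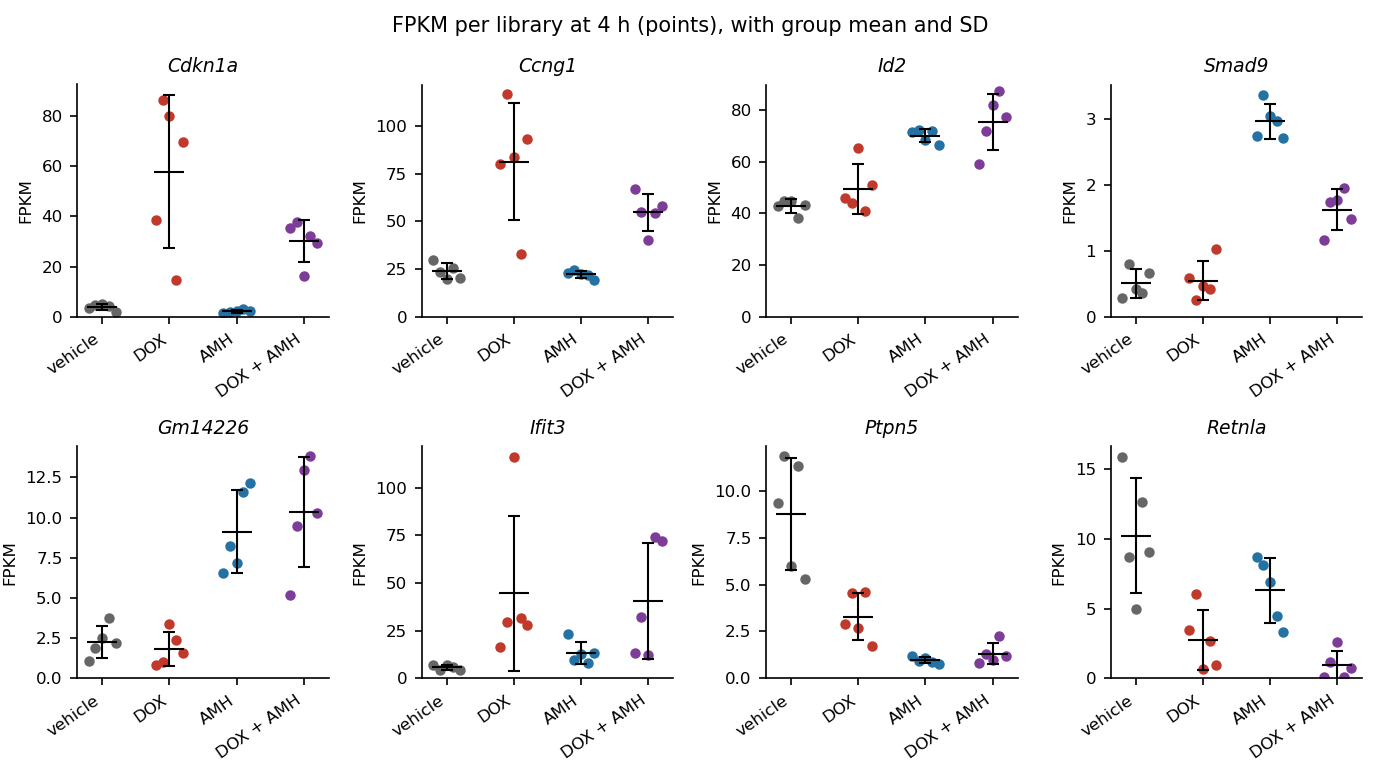
FPKM of 8 genes in each of the 5 libraries of the 4 groups at 4 h (points), with the mean and SD of the group (bars). Combined-treatment libraries lie apart from vehicle libraries in all 8 panels, near doxorubicin alone for Ifit3 and near AMH alone for Id2, Gm14226 and Ptpn5. For Smad9 the filter fixed the separation from vehicle.

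The same genes were measured after each agent alone. They share the vehicle libraries with the comparison above, so the values are given side by side. Cdkn1a averaged 57.9 ± 30.3 FPKM (SD, n = 5) with doxorubicin alone, 2.13 ± 0.611 FPKM with AMH alone and 30.2 ± 8.45 FPKM with combined treatment. Its log2 difference from vehicle was 3.39 ± 0.36 for doxorubicin alone (limma adjusted p = 5.9e-07), -0.63 ± 0.36 for AMH alone (adjusted p = 0.195) and 2.66 ± 0.36 for both. Id2 showed the other order, with 0.19 ± 0.14 for doxorubicin alone (adjusted p = 0.599), 0.70 ± 0.14 for AMH alone (adjusted p = 0.00326) and 0.80 ± 0.14 for both. Ephx1, counted with the p53 targets, was higher with either agent alone. Its difference was 0.93 ± 0.21 for doxorubicin alone (limma adjusted p = 0.0253) and 0.74 ± 0.21 for AMH alone (adjusted p = 0.0134). Against vehicle, 0.549% of all genes were called with doxorubicin alone (0.429% higher, 0.12% lower) and 23.1% with AMH alone (10.2% higher, 12.9% lower).

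Direct comparison of combined treatment with doxorubicin alone called 2 genes (0.0141% of those tested, 1013 at an unadjusted p under 0.05), Gm14226 and Smad9, both higher with AMH added. Gm14226 averaged 10.4 ± 3.403 FPKM with both agents and 1.83 ± 1.04 FPKM with doxorubicin alone (log2 difference 2.02 ± 0.26, limma adjusted p = 7.3e-05). Smad9 averaged 1.62 ± 0.308 and 0.549 ± 0.291 FPKM (0.77 ± 0.14, adjusted p = 0.0419). Gm14226 was called whichever library of the pair of groups was left out, with 1 to 3 genes called in all, and lost its call when the fit held just this pair of groups (adjusted p = 0.123). Smad9 was not called in 8 of the 10 omissions or in that fit. Cdkn1a differed by -0.73 ± 0.36, which did not pass (adjusted p = 0.692), and Id2 differed by 0.61 ± 0.14 (adjusted p = 0.316). The p53 targets Ccng1, Sesn2 and Trp53inp1 differed by -0.47 ± 0.23, -0.92 ± 0.24 and -0.74 ± 0.22 (adjusted p = 0.692, 0.427 and 0.593).

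Against AMH alone, combined treatment called 31 genes (0.218%), 8 higher (0.0563%) and 23 lower (0.162%). With voom on rebuilt reads 7 were higher and 9 lower. The higher genes were led by Cdkn1a (log2 difference 3.29 ± 0.36, limma adjusted p = 1.3e-06), Gm37795 (1.48 ± 0.26, adjusted p = 0.00968) and Ccng1 (1.26 ± 0.23, adjusted p = 0.00968). Of the 48 p53 targets 4 were called, Cdkn1a, Ccng1, Phlda3 and Zmat3, all higher. Against vehicle, Phlda3 and Zmat3 were not called, at 0.73 and 0.18 (limma adjusted p = 0.113 and 0.571). Zmat3 averaged 5.19 FPKM with both agents, 2.36 FPKM with AMH alone and 4.46 FPKM with vehicle. Phlda3 encodes an inhibitor of AKT and averaged 56.1 ± 11.02 FPKM with both agents and 25.95 ± 3.81 FPKM with AMH alone. Among the lower genes were 3 of 7 tested markers of dendritic cells and MHC class II, H2-Aa, H2-Ab1 and H2-Eb1. They are described here, like Phlda3 and Zmat3, after their values were seen. H2-Eb1 averaged 39.9 ± 14.3 FPKM with both agents, 98.8 ± 16.4 FPKM with AMH alone and 79.97 ± 14.5 FPKM with vehicle. Smad9 differed from AMH alone by -0.60 ± 0.14 (adjusted p = 0.0604), which did not pass, and Id2 differed by 0.095 ± 0.14 (adjusted p = 0.8). The count fell to 1 without AMH library 5, to 5 or 6 without AMH library 2 or 1, to 14 without AMH library 3, to 2, 9 or 18 without combined-treatment library 1, 2 or 5.

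**Figure D3:**
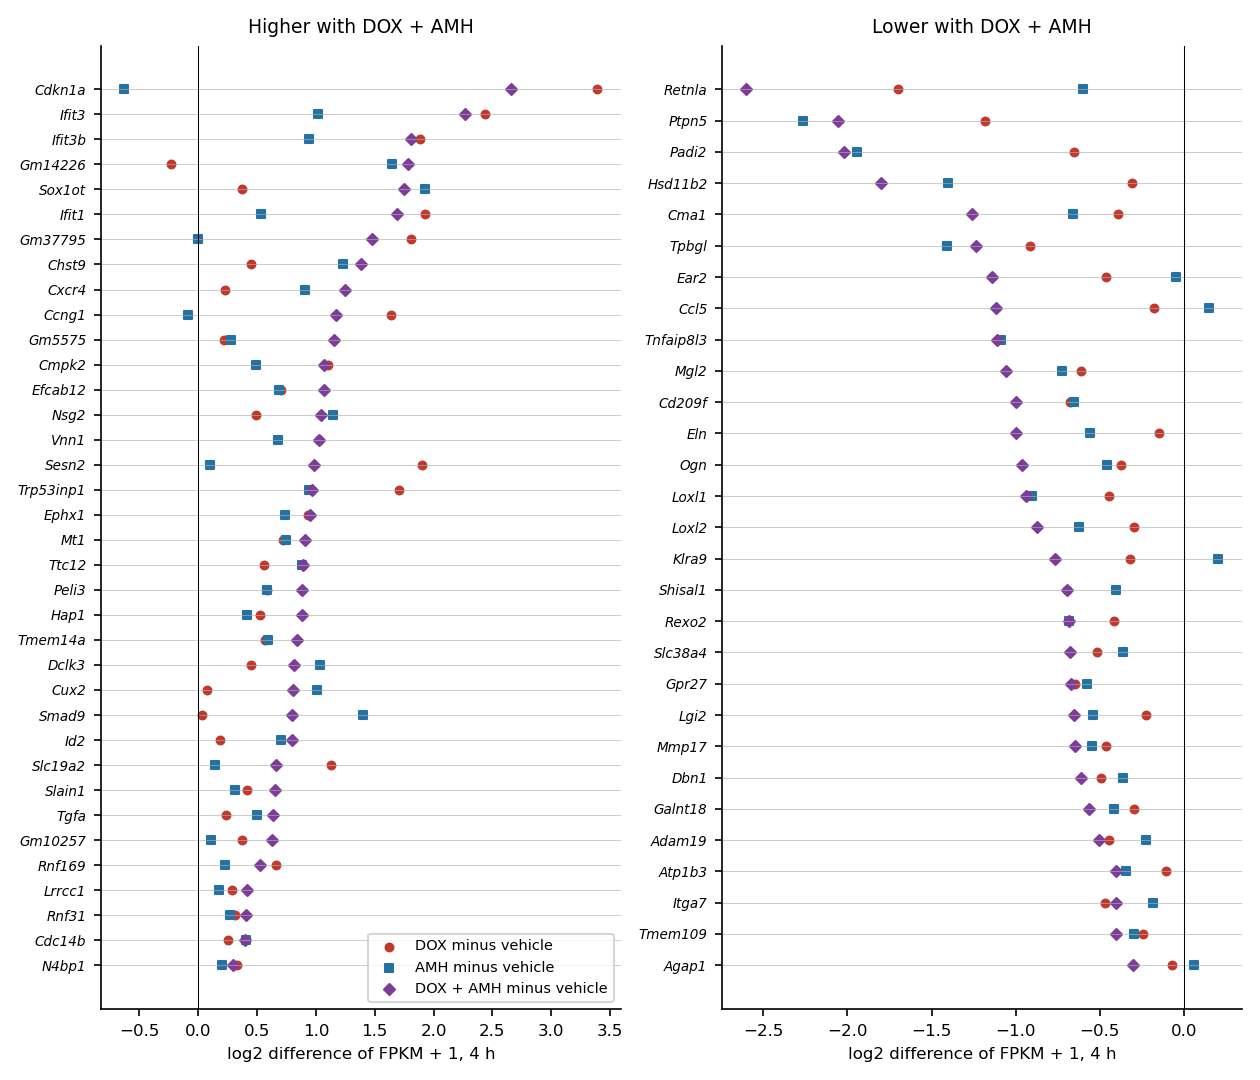
Log2 differences from vehicle at 4 h for the 65 genes called with combined treatment (diamonds), beside doxorubicin alone (circles) and AMH alone (squares), higher genes on the left and lower genes on the right, on separate x axes. All 3 differences use the same vehicle libraries. Cdkn1a, Ccng1 and Sesn2 lie near 0 or below with AMH alone, and Gm14226, Smad9 and Cux2 lie near 0 with doxorubicin alone.

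Interferon-response genes had positive differences throughout. Interferons are antiviral signals that switch on a shared set of genes through STAT and IRF factors. All 46 tested members had a positive difference, 4 passed the test (background 0.253% higher), and the median log2 difference was 0.72. The 4 were Ifit3, Ifit1 and Ifit3b, of the Ifit family, and Cmpk2, a mitochondrial nucleotide kinase. Ifit3 (chr19:34583531-34588731, plus strand) read 7.19, 4.14, 7.02, 5.88 and 4.54 FPKM with vehicle and 13.04, 32.01, 12.1, 74.04 and 71.95 FPKM with combined treatment (log2 difference 2.27 ± 0.46, limma adjusted p = 0.017). The groups did not overlap, but treated libraries 4 and 5 were far above 1 and 3.

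Ifit1, Ifit3b and Cmpk2 were higher by 1.69 ± 0.35, 1.81 ± 0.39 and 1.07 ± 0.24 (limma adjusted p = 0.0182, 0.021 and 0.0244), each without overlap. Ifit3 and Ifit3b are close copies, so reads may be split between them in an unknown way. The summed FPKM of the list was 560, 435, 437, 496 and 442 with vehicle and 502, 665, 545, 1408 and 961 with combined treatment, so libraries 4 and 5 were highest and libraries 1 and 3 lay within the vehicle range. Calls were lost for Ifit3 without vehicle library 2 or combined-treatment library 5 (adjusted p = 0.0668 to 0.0964), Ifit1 without vehicle library 2 or 4 or combined-treatment library 4 or 5 (adjusted p = 0.0611 to 0.102), Ifit3b without vehicle library 2 or 4 or combined-treatment library 4 or 5 (adjusted p = 0.0678 to 0.127) and Cmpk2 without vehicle library 1, 2, 3 or 4 or combined-treatment library 2, 4 or 5 (adjusted p = 0.0509 to 0.145). All 4 calls were also lost with voom on rebuilt reads (adjusted p = 0.072, 0.0596, 0.0738 and 0.0524) and without combined-treatment libraries 1, 2 and 4 (adjusted p = 0.0811, 0.0929, 0.0861 and 0.118). With only the 4 groups at 4 h in the fit, 21 of 46 were higher against 5.95% of all genes. Without the libraries high in oviduct markers 0 of 46 were higher, beside 7 of all 14203 genes. Of 16 genes of MHC class I antigen presentation, 15 had a positive difference and 0 passed (median 0.37).

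The windows before the 3 Ifit genes carry an interferon-stimulated response element, here GAAA, any 2 bases and GAAA again on either strand, searched for after these values were seen and printed to show how alike they are. All 3 held 2 matches, in capitals as read on the printed strand, and the window of Cmpk2 held 0. The stretches are chr19:34583279-34583528, plus strand for Ifit3, chr19:34607707-34607956, plus strand for Ifit3b and chr19:34640744-34640870, plus strand for Ifit1, for which only the part outside annotated untranslated exons is printed.
Ifit3 promoter: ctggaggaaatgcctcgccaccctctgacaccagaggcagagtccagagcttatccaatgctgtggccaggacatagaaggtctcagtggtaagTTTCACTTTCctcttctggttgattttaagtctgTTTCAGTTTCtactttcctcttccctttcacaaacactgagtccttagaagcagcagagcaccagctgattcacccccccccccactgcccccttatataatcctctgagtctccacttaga
Ifit3b promoter: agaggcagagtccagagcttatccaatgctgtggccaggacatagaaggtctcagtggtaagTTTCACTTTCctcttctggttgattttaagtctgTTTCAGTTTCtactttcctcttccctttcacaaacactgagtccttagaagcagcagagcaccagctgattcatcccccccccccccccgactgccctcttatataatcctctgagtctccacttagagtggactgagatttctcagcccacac
Ifit1 promoter: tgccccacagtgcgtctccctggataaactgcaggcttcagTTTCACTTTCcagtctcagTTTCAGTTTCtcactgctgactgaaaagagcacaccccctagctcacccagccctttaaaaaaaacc
The motif was in 978 of the 32851 windows of 250 bases (2.98%).

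After doxorubicin alone Ifit3 averaged 44.5 ± 40.6 FPKM and after AMH alone 13.2 ± 5.901 FPKM (SD, n = 5), beside 40.6 ± 30.6 FPKM with both and 5.76 ± 1.39 FPKM with vehicle. Combined treatment did not differ detectably from doxorubicin alone for Ifit3 (log2 difference -0.17 ± 0.46, limma adjusted p = 0.94) or Ifit1 (-0.24 ± 0.35, adjusted p = 0.884).

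**Figure D4:**
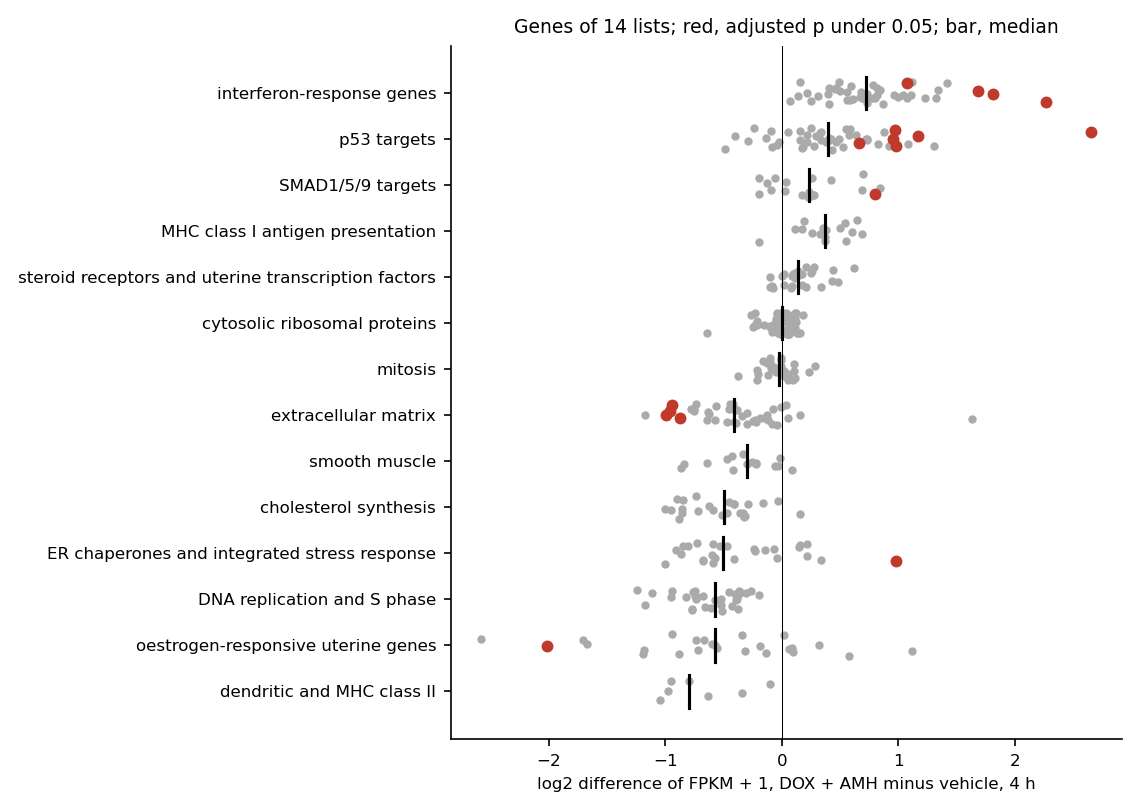
Log2 difference of FPKM + 1 between combined treatment and vehicle at 4 h for each tested gene of 14 lists, 1 row per list. Red points passed an adjusted p of 0.05, grey points did not, and the bar is the median, which runs from 0.72 for interferon-response genes to -0.80 for dendritic and MHC class II markers.

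Retnla, Mgl2 and Cma1, genes known from macrophages and mast cells, were among the 29 lower genes. Called lower were 0 of 12 tested macrophage markers, 0 of 8 T and NK cell markers and 0 of 3 B and plasma cell markers. Of 5 mast cell markers 1 was called lower (background 0.204% lower). Retnla, a secreted protein of alternatively activated macrophages, read 15.9, 8.67, 4.999, 12.6 and 9.03 FPKM with vehicle and 0.0909, 1.15, 2.58, 0.0816 and 0.764 FPKM with combined treatment (log2 difference -2.60 ± 0.49, limma adjusted p = 0.00939). Mgl2, a lectin of the same macrophages and of dendritic cells, read 8.75, 8.701, 5.67, 7.50 and 6.44 FPKM with vehicle and 2.65, 5.18, 2.79, 2.01 and 2.96 FPKM with combined treatment (-1.06 ± 0.19, adjusted p = 0.0051). Every treated library lay below every vehicle library for both. Cma1, the mast cell protease chymase, read 4.72, 2.83, 2.198, 2.72 and 3.69 and 0.699, 0.878, 0.399, 1.44 and 0.420 FPKM (-1.26 ± 0.22, adjusted p = 0.0051), again without overlap.

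Among treated libraries Retnla was lowest in 1 and 4 and highest in 3, and the adipocyte marker sum was low in libraries 1, 2 and 4 and highest in library 3. Library 2 went the other way, with Retnla at 1.15 FPKM against 0.764 FPKM in library 5. In library 3 the adipocyte sum was 344, above the vehicle maximum of 297.3. Retnla was 2.58 FPKM there, below the lowest vehicle value of 4.999 FPKM. Without libraries 1, 2 and 4, an omission chosen after the values were seen, the Retnla difference was -2.08 (limma adjusted p = 0.128), and Mgl2 and Cma1 kept their calls. The part of attached fat in the Retnla result was not tested further. The 12 tested macrophage markers had a median of -0.30 with 11 negative and 0 called, and their summed FPKM was 201 to 304 with vehicle and 129 to 236 with combined treatment. Of 5 tested mast cell markers Cma1 alone passed, 3 had negative differences, and 2, Kit and Hdc, had positive ones (0.20 and 0.67). The summed list reached 54.5 in combined-treatment library 5, the library high in oviduct markers. Hdc reached at most 43.1 FPKM in the 10 libraries.

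Ear2, an eosinophil-associated ribonuclease, Ccl5, a chemokine of T and NK cells, Klra9, an NK cell receptor, and Cd209f, a C-type lectin, were also lower, with log2 differences of -1.14 ± 0.22, -1.12 ± 0.26, -0.77 ± 0.17 and -1 ± 0.23 (limma adjusted p = 0.0105, 0.035, 0.0266 and 0.0309). All 4 were at low levels, 9.08 FPKM or less in every one of the 10 libraries. These calls were lost for Ear2 without vehicle library 1 (adjusted p = 0.0546), Ccl5 without vehicle library 1, 2, 4 or 5 or combined-treatment library 1, 2, 3 or 5 (adjusted p = 0.0552 to 0.147), Klra9 without vehicle library 1, 2, 3 or 4 or combined-treatment library 1, 3 or 5 (adjusted p = 0.0516 to 0.102) and Cd209f without vehicle library 1, 2 or 4 or combined-treatment library 1, 2 or 5 (adjusted p = 0.0642 to 0.147). The 8 tested T and NK cell markers had a median of -0.14 with 6 negative, and Gzmb and Prf1, cytotoxic effectors, were the positive ones. The 7 tested markers of dendritic cells and MHC class II all had negative differences, with a median of -0.80 and 0 called. Their summed FPKM was 492, 325, 345, 414 and 366 with vehicle and 117, 150, 232, 328 and 275 with combined treatment, so 1 treated library reached the lowest vehicle value. In the fit of the 4 groups at 4 h, 5 of these 7 were lower against 7.51% of all genes.

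**Figure D5:**
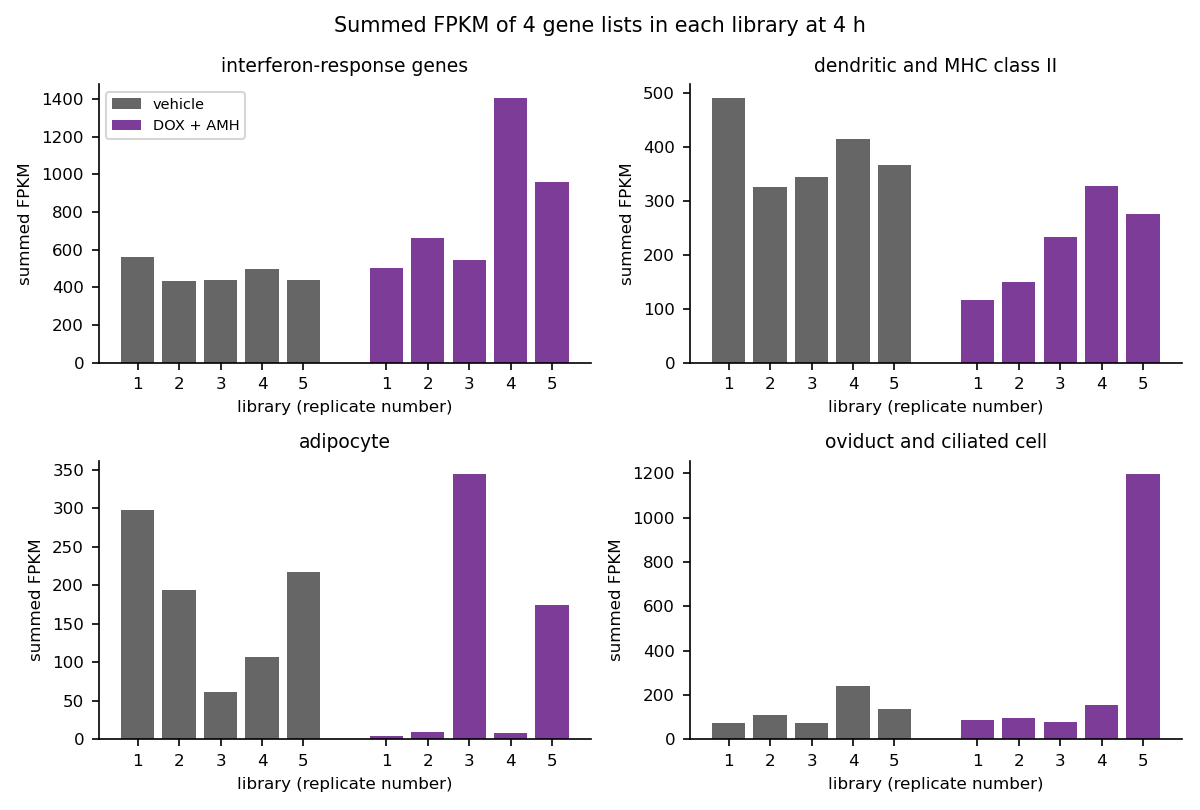
Summed FPKM of 4 gene lists (bars from 0) in vehicle libraries 1 to 5 and combined-treatment libraries 1 to 5 at 4 h. Interferon-response genes reach 1408 in treated library 4, adipocyte markers are at 3.65 to 9.02 in treated libraries 1, 2 and 4, and oviduct and ciliated-cell markers reach 1196 in treated library 5.

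Extracellular matrix genes had mostly negative differences. Of 42 tested, 4 were lower and 0 higher (background 0.204% lower), 38 had a negative difference, and the median was -0.41. Ogn, which encodes the small proteoglycan osteoglycin, read 87.5, 88.4, 70.99, 97.9 and 66.2 FPKM with vehicle and 38.4, 39.95, 39.6, 42.5 and 45.9 FPKM with combined treatment without overlap (log2 difference -0.96 ± 0.18, limma adjusted p = 0.00766). The other 3 belong to elastic fibres and cross-linking: Loxl1 and Loxl2, lysyl oxidases, and Eln, elastin, with log2 differences of -0.94 ± 0.19, -0.88 ± 0.18 and -0.996 ± 0.22 (adjusted p = 0.017, 0.017 and 0.021). Eln read 36.02, 33.8, 29.2, 34.4 and 22.7 FPKM with vehicle and 12.8, 14.6, 15.5, 17.5 and 14.8 FPKM with combined treatment. Its groups did not overlap. Without the libraries high in oviduct markers, 1 of the 42 was lower, beside 6 of all 14203 genes.

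Ogn kept its call whichever single library was left out and lost it without the libraries high in oviduct markers (limma adjusted p = 0.0855) and without combined-treatment libraries 1, 2 and 4 (adjusted p = 0.0811). Loxl1 kept its call in both of these cases. With 1 library left out, the call was lost for Loxl1 without vehicle library 1, 2 or 4 or combined-treatment library 5 (adjusted p = 0.0599 to 0.1), Loxl2 without vehicle library 1, 2 or 4 or combined-treatment library 5 (adjusted p = 0.0515 to 0.0964) and Eln without vehicle library 1, 2 or 4 or combined-treatment library 1, 2 or 5 (adjusted p = 0.0504 to 0.0948). Eln averaged 29.3 ± 11.98 FPKM with doxorubicin alone and 21.2 ± 5.81 FPKM with AMH alone. Coch, a secreted matrix protein, went the other way, at 5.55, 6.44, 12.6, 5.35 and 12.6 FPKM with vehicle and 22.2, 34.4, 21.4, 21.7 and 37.7 FPKM with combined treatment. These values did not overlap and the difference of 1.63 ± 0.67 did not pass (limma adjusted p = 0.199, and 0.00146 with only the 4 groups at 4 h in the fit). Mmp17, a membrane-anchored metalloproteinase, was lower, with a difference of -0.65 ± 0.16 (adjusted p = 0.0473), a call lost on leaving out any of the 10 libraries (adjusted p = 0.0536 to 0.208).

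Markers of smooth muscle had negative differences in 14 of 15, with a median of -0.30 and 0 called. Actg2, the enteric gamma actin, read 412, 544, 401, 536 and 409 FPKM with vehicle and 353, 294, 260.0, 219 and 177 FPKM with combined treatment without overlap (-0.84 ± 0.24, limma adjusted p = 0.0911), and Acta2 differed by -0.42 ± 0.15 (adjusted p = 0.156). The summed FPKM of 15 smooth muscle markers was 3324 to 4255 with vehicle and 2259 to 3505 with combined treatment. That of 10 skeletal muscle markers was 120 to 196 and 39.4 to 104.4, and most of it was Acta1 (means 120.2 and 46.7 FPKM) and Tnni2 (35.01 and 22.3 FPKM). The fibre-specific Ckm, Myh1, Myh2, Myh4 and Tnnc2 reached at most 0.288 FPKM in any of the 10 libraries.

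Ptpn5 had the largest lower difference after Retnla. It encodes STEP, a tyrosine phosphatase best known from neurons. The gene (chr7:47077795-47133684, minus strand) read 9.37, 11.8, 5.995, 11.3 and 5.32 FPKM with vehicle and 0.817, 1.302, 0.968, 2.24 and 1.203 FPKM with combined treatment (log2 difference -2.05 ± 0.39, limma adjusted p = 0.00939). All treated libraries lay below the lowest vehicle value. It averaged 0.9598 ± 0.161 FPKM with AMH alone and 3.29 ± 1.26 FPKM with doxorubicin alone. Ptpn5 was kept whichever library was left out, and was not called without the libraries high in oviduct markers (adjusted p = 0.104) or without combined-treatment libraries 1, 2 and 4 (adjusted p = 0.0711).

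Hormone-related genes of the uterus were lower in part. Padi2, a peptidylarginine deiminase induced by oestrogen, was the 1 called member of 25 oestrogen-responsive genes tested (background 0.204% lower). Of the 25, 18 had negative differences (median -0.58), and 9 were lower in the fit of the 4 groups at 4 h, against 7.51% of all genes. Padi2 read 75, 54.02, 36.9, 58.3 and 28.3 FPKM with vehicle and 8.74, 8.82, 12.5, 23 and 7.09 FPKM with combined treatment (-2.02 ± 0.49, limma adjusted p = 0.0467). Hsd11b2, which inactivates glucocorticoids, read 117, 77.9, 53.5, 117 and 60.8 FPKM with vehicle and 16.5, 25.9, 19.6, 61.6 and 10.9 FPKM with combined treatment (-1.80 ± 0.43, adjusted p = 0.0424), and its treated library 4 overlapped the vehicle range. The calls were lost for Padi2 without vehicle library 1, 2, 3 or 4 or combined-treatment library 1, 2, 3 or 5 (adjusted p = 0.0565 to 0.176) and Hsd11b2 without vehicle library 1, 2 or 4 or combined-treatment library 1, 2, 3 or 5 (adjusted p = 0.0642 to 0.194). Igf1, a growth factor of uterine stroma induced by oestrogen, read 35.9, 50.8, 33.9, 46.04 and 29.9 and 18.9, 17.6, 14.4, 13.8 and 17.3 FPKM without overlap and did not pass (-1.20 ± 0.33, adjusted p = 0.0851, and 0.000443 with only the 4 groups at 4 h in the fit).

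The receptors for these hormones showed no difference that passed. Esr1, oestrogen receptor alpha, read 44.1, 47.7, 48.6, 44.1 and 46.9 FPKM with vehicle and 46.7, 47.4, 45.8, 45.3 and 48.96 FPKM with combined treatment (log2 difference 0.018 ± 0.083, limma adjusted p = 0.919). Pgr, the progesterone receptor, differed by 0.082 ± 0.15 (adjusted p = 0.782). Both overlapped between the groups. Tpbgl and Tnfaip8l3, a lipid-transfer protein, were lower, with differences of -1.24 ± 0.27 and -1.11 ± 0.26 (adjusted p = 0.021 and 0.0421), and the calls were lost for Tpbgl without vehicle library 1, 2 or 4 or combined-treatment library 3 or 5 (adjusted p = 0.0516 to 0.0964) and Tnfaip8l3 without vehicle library 1, 2, 3 or 4 or combined-treatment library 2, 3, 4 or 5 (adjusted p = 0.0526 to 0.176).

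No gene of the lists of DNA replication, mitosis, and G1 cyclins and their inhibitors passed the test. Cdkn1a and Ccng1, called above, were counted with the p53 targets and were in none of these lists. All 33 tested genes of DNA replication and S phase had negative differences, with a median of -0.57 and 0 called (3 lower in the fit of the 4 groups at 4 h, against 7.51% of all genes). Of 29 mitosis genes 0 were called and the median was -0.023. Top2a, the isoform of topoisomerase II that doxorubicin traps in dividing cells, read 13.2, 16.2, 2.76, 2.46 and 11.2 FPKM with vehicle and 22.7, 11.6, 2.46, 2.67 and 2.297 FPKM with combined treatment. Vehicle libraries 1, 2 and 5 and treated libraries 1 and 2 were high and the rest low, so both groups held high and low libraries (log2 difference -0.33 ± 0.69, limma adjusted p = 0.815). Mki67 fell into the same high and low libraries (-0.0053 ± 0.69, adjusted p = 0.996). Top2b, the isoform of non-dividing cells, differed by -0.17 ± 0.096 (adjusted p = 0.312).

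Metabolic and stress lists held few calls. Of 24 cholesterol synthesis genes 23 had negative differences, with a median of -0.49 and 0 called, and 18 were lower in the fit of the 4 groups at 4 h, against 7.51% of all genes. Endoplasmic reticulum chaperones and genes of the integrated stress response had a median of -0.50 with 20 of 26 negative. Their called member was Sesn2, which was higher (background 0.253% higher) and was counted above with the p53 targets. In that other fit 12 of the 26 were lower, against the same 7.51%. Mt1, a metal-binding metallothionein, was higher (29.5, 29.5, 42.95, 30.9 and 40.9 FPKM with vehicle, 59.3, 59.5, 61.9, 60.02 and 90.2 FPKM with combined treatment, log2 difference 0.91 ± 0.20, limma adjusted p = 0.0254). Its groups did not overlap, and the call was lost for Mt1 without vehicle library 1, 2 or 4 or combined-treatment library 5 (adjusted p = 0.0812 to 0.145). Tgfa, a ligand of the EGF receptor, was higher by 0.63 ± 0.15 (adjusted p = 0.0357), lost for Tgfa without vehicle library 1, 2, 3, 4 or 5 or combined-treatment library 3, 4 or 5 (adjusted p = 0.0515 to 0.194).

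Among regulators of damage and immune signalling, Rnf169, a ubiquitin-binding protein recruited to double-strand breaks, was higher at 10.3, 10.1, 8.84, 8.43 and 8.62 FPKM with combined treatment against 6.14, 6.06, 5.91, 6.596 and 5.904 FPKM with vehicle (log2 difference 0.52 ± 0.096, limma adjusted p = 0.00766). The groups did not overlap and the call held whichever single library was left out, but not without combined-treatment libraries 1, 2 and 4 (adjusted p = 0.0929). Of 41 DNA repair and damage-sensing genes 0 passed, with 33 negative and a median of -0.15. Rnf31, the catalytic subunit of the linear ubiquitin ligase, was higher by 0.40 ± 0.088 (adjusted p = 0.021). It overlaps Irf9, an interferon-signalling gene, on the same strand, and its call was lost for 6 of 10 omissions, without vehicle library 1, 2, 3 or 4 or combined-treatment library 4 or 5 (adjusted p = 0.0533 to 0.0948).

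Among glucocorticoid-responsive and clock genes, Mt1 passed (background 0.253% higher). Per1, a clock repressor also induced by glucocorticoids, differed by 0.39 ± 0.23 (limma adjusted p = 0.343), Fkbp5, a co-chaperone of the glucocorticoid receptor, by -0.087 ± 0.29 (adjusted p = 0.887), and Wee1, the kinase that holds back mitotic entry, by -0.16 ± 0.20 (adjusted p = 0.657). Gata2, a transcription factor of the progesterone response, read 47.2, 53.6, 56.2, 48.6 and 48.9 FPKM with vehicle and 55.8, 56.3, 59.1, 60.8 and 50.3 FPKM with combined treatment (0.15 ± 0.068, adjusted p = 0.236). Of 19 clock genes 14 had positive differences, with a median of 0.36 and 0 called, and 8 were higher in the fit of the 4 groups at 4 h, against 5.95% of all genes.

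The remaining called genes fell outside the groups above. Higher were Tmem14a, Slain1, Cdc14b, Vnn1, Gm5575, Hap1, Efcab12, N4bp1, Peli3, Nsg2, Gm10257, Dclk3, Ttc12 and Lrrcc1, with log2 differences from 0.30 for N4bp1 to 1.15 for Gm5575. Lower were Galnt18, Lgi2, Rexo2, Dbn1, Adam19, Atp1b3, Gpr27, Tmem109, Shisal1, Agap1, Slc38a4 and Itga7, from -0.69 for Shisal1 to -0.31 for Agap1. Each lost its call on leaving out at least 1 library, with an adjusted p (limma) of up to 0.213, for Ttc12. Ttc12, needed for the dynein arms of cilia, and Efcab12, Slain1 and Vnn1 were highest in combined-treatment library 5, which also held the most oviduct and ciliated-cell RNA. Without it their adjusted p was 0.213, 0.152, 0.0948 and 0.0964, and the part of oviduct RNA in these calls was not tested further. Of the 14203 genes, 12 met the filter through combined-treatment libraries alone, and 4 of these were called (Smad9, Sox1ot, Vnn1 and Gm5575). Through vehicle libraries alone 7 met it, and 1 was called (Klra9). For these genes the filter fixed the lack of overlap between the groups.

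The same comparison at 24 h differed from that at 4 h for 48 genes (0.338% of those tested), 6 (0.0422%) more positive and 42 (0.296%) more negative at 24 h. With voom on rebuilt reads the split was 8 and 7. Vehicle libraries 1, 2 and 4 and AMH library 3, all of 24 h, were the 4 libraries high in oestrogen-responsive genes. Without these 4, 19 genes changed with time (3 more positive and 16 more negative), 10 of them among the 48. Errfi1, a feedback inhibitor of the EGF receptor, averaged 15.1 ± 1.45 FPKM with vehicle and 14.4 ± 3.52 FPKM with combined treatment at 4 h (SD, n = 5), and 54.4 ± 11.9 and 16.03 ± 1.97 FPKM at 24 h. Its difference changed by -1.58 ± 0.30 (limma adjusted p = 0.0111). The vehicle libraries of 24 h, not the treated ones, were the high values. Cyr61, Hspa1a, Dnajb1 and Jun, picked after their values were seen, were called the same way, and for each the vehicle mean was higher at 24 h than at 4 h. Of 21 cytosolic heat shock proteins 5 were among the calls. For Cdkn1a the difference went from 2.66 at 4 h to 1.63 at 24 h, a change that did not pass (adjusted p = 0.388).

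Among the 13 genes kept under all single omissions at 4 h, the differences at 24 h were 0.97 ± 0.14 for Id2, 0.94 ± 0.14 for Smad9, 1.32 ± 0.26 for Gm14226, -3.14 ± 0.39 for Ptpn5 and -2.06 ± 0.49 for Retnla (limma adjusted p = 1.7e-05, 4.8e-05, 0.000677, 3.6e-06 and 0.00276, where 37.9% of all genes were called, 16.9% higher and 21% lower). Cdkn1a, Ccng1, Gm37795, Cux2, Mgl2 and Ogn were also called there, with the sign they had at 4 h. Rnf169 and Cma1 were not called at 24 h, at 0.19 ± 0.096 (adjusted p = 0.111) and -0.21 ± 0.22 (adjusted p = 0.465), and for Cma1 the change with time did not pass (adjusted p = 0.132). The number of genes that changed with time ranged from 16 without combined-treatment library 5 of 4 h to 226 without vehicle library 3 of 24 h.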

How the data were processed

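Whole uteri were profiled by bulk RNA-seq in 8 groups of 5 libraries, and 40 libraries were read from 1 table of genes. Its values are FPKM as deposited by the authors. The build was mm10, per the submitters' processing notes, while for aligner and counter the sources used here give no name. RNA came from a Qiagen kit and libraries from Novogene, per the labels' protocols. All value columns matched 1 library each (0 left over).

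FPKM was tested as log2(FPKM + 1), a pseudocount of 1, with limma 3.58.1 in R 4.3.3 (trend and empirical Bayes, 32 residual degrees of freedom), over 14203 genes with at least 1 FPKM in 5 of 10 libraries. One fit over 40 libraries gave every contrast, with Benjamini-Hochberg adjustment over all genes tested and a threshold of 0.05, two-sided. FPKM values were whole multiples of 1 read in 100% of entries at a tolerance of 0.01, so reads could be rebuilt for depth and for limma-voom. Within the vehicle group and the combined-treatment group at 4 h, no pair of libraries agreed within counting noise (chi-square per degree of freedom at least 14.9). Python 3.11.15 and matplotlib 3.10.9 made the figures. The test was checked on simulated data.

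Genes were named by rule: up to 10 called protein-coding genes per direction with the largest difference and at least 2 FPKM on average where higher, the 4 called members of each list with the smallest p, a fixed set of pathway genes, all genes called against doxorubicin alone, and up to 10 against AMH alone. The other called genes were named after their values were seen. The members and the 52 lists (33 pathway, 19 cell markers) were chosen with earlier results of these data known. Promoter motifs were searched on both strands of 250 bases, and the interferon-stimulated response element was added after the promoters were seen. Alternatives covered pseudocount, filter, scaling, groups in the fit, weights, robust estimation, the replicate number as a block, voom and libraries left out. Leaving out combined-treatment libraries 1, 2 and 4 was chosen after seeing the data.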

Additional observations from a re-analysis of the deposited data

Results flagged for a closer look

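Single libraries stood apart in 14 of 186 checks of a gene in a group of 5, where chance flags about 1 in 20. In combined-treatment library 5, Efcab12 read 6.80 FPKM against 1.80 to 2.64 in the other 4, Ttc12 8.51 against 2.89 to 4.22, Slain1 5.67 against 3.10 to 3.81, Vnn1 6.74 against 1.46 to 2.57, Mt1 90.2 against 59.3 to 61.9 and Mmp17 4.93 against 7.15 to 7.46. This is the library whose oviduct and ciliated-cell markers summed to 1196 FPKM. In combined-treatment library 1, Bmpr1a read 34.4 FPKM against 28.2 to 29.8, Id4 27.5 against 31.8 to 33.3 and Cux2 1.47 against 2.27 to 2.51. Sesn2 read 4.38 FPKM in combined-treatment library 3 against 7.49 to 7.84, and Tpbgl 1.94 in library 4 against 1.06 to 1.28. Among vehicle libraries, Gdf15 read 0.206 FPKM in library 3 against 0.397 to 0.473, N4bp1 5.88 in library 2 against 5.21 to 5.41, and Cd209f 4.54 in library 1 against 1.51 to 1.93.

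The effect of combined treatment differed between harvest times for a pair of named genes, by the interaction term of the limma fit. For Errfi1 the log2 difference from vehicle was -0.098 at 4 h and -1.68 at 24 h, a change of -1.58 (adjusted p = 0.0111). For Gm10257 it was 0.63 at 4 h and -0.49 at 24 h, a change of -1.11 (adjusted p = 0.0111).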

How the results depend on the processing

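The count of 65 genes against vehicle was 34 with a filter at 5 FPKM, 1911 with the 4 groups at 4 h alone, 955 with the compared groups alone, 2660 with array weights, 13 without the libraries high in oviduct markers, 768 without 4 libraries high in oestrogen-responsive genes and 24 without combined-treatment libraries 1, 2 and 4. Leaving out 1 library gave 17 to 67. Against doxorubicin alone, the count of 2 was 1 with a pseudocount of 0.1, a filter at 5 FPKM, a filter over all 40 libraries, the replicate block, voom, without the high-oviduct libraries and without combined-treatment libraries 1, 2 and 4. It was 4 with no filter, 14 with the groups at 4 h, 0 with the compared groups, 23 with array weights and 7 without the high-oestrogen libraries, and 1 to 3 with 1 library left out. Against AMH alone, the count of 31 was 690 with the groups at 4 h, 814 with the compared groups, 1277 with array weights, 16 with voom, 170 without the high-oestrogen libraries, 1 without combined-treatment libraries 1, 2 and 4, and 1 to 32 with 1 library left out. The count of 48 that changed with time was 30 with no filter, 14 with the compared groups, 2679 with array weights, 15 with voom, 29 without the high-oviduct libraries, 19 without the high-oestrogen libraries, 14 without combined-treatment libraries 1, 2 and 4, and 16 to 226 with 1 library left out. The cause of these shifts was not tested. Of the 65 genes, 13 were kept in every omission of 1 library and 5 of them in every other alternative as well (Cdkn1a, Gm14226, Cma1, Id2 and Mgl2).

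Sign changes against vehicle at 4 h were limited to genes that were not called there. Mki67 was at 0.018 with a pseudocount of 0.1, at 0.00076 with median-of-ratios scaling and ran from -0.44 to 0.25 over the 10 omissions of 1 library. Bmpr1a was at -0.0038 with array weights, -0.0057 without the high-oviduct libraries, -0.048 without combined-treatment libraries 1, 2 and 4 and ran from -0.033 to 0.040 over the omissions. Esr1 was at -0.015 without the high-oviduct libraries, Errfi1 at 0.12 without combined-treatment libraries 1, 2 and 4 and at -0.20 to 0.021 over the omissions, and Smad7 at -0.021 to 0.095 over them. The replicate block gave 60 genes against vehicle, 57 of them among the 65, 36 against AMH alone and 40 for time. Same-numbered vehicle and combined-treatment libraries deviated together with r of 0.26, 0.19, 0.15, 0.19 and -0.023, above 0.1 in 4 of 5 pairs, and 1 of 5 was closest to its own number, so a pairing was not assumed. Under the block Sesn2, Ccl5, Hsd11b2, Tnfaip8l3, Mmp17, Ttc12, Gm10257 and Slc38a4 were not called (limma adjusted p = 0.0663, 0.0603, 0.0604, 0.0603, 0.0603, 0.0513, 0.057 and 0.0528). Depth of 18101414 reads or more leaves genes near 1 FPKM with the fewest reads and the least precise differences.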
